A study of Mus musculus with 24 samples.

Results

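The 5 genes described here encode the chemokine receptors Cxcr3, Cxcr4, Cxcr5, Cxcr6 and Cx3cr1. They were taken by symbol from the 17464 genes of a normalized count table of splenic regulatory T (Treg) cells, and all 5 passed the filter on low values that left 16630 genes for testing. The libraries were bulk RNA-seq from wild-type C57BL/6JRccHsd mice, without a transgene or treatment, aged 2 months (young) or 26 months (old) by the text of the study. From spleen 3 Treg subsets were sorted, CD44- resting cells (rTreg), CD44+ activated cells (aTreg) and KLRG1+ cells (kTreg). There were 24 libraries in 6 groups of 4, numbered 1 to 4 within each group. By the study's methods n counts individual biological replicates unless otherwise specified, and its RNA-seq figure gives 4 per group. The sources used here do not say whether libraries with the same number share a mouse across subsets. The p-values below measure the spread between these libraries, and the main fit treats all of them as independent. The comparisons ask how the receptor repertoire of KLRG1+ Treg cells differs from that of the other subsets, and how it differs with age.

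Chemokine receptors are G protein-coupled receptors that direct where a lymphocyte goes. CXCR3 binds the interferon-induced ligands CXCL9, CXCL10 and CXCL11 and is induced by the transcription factor T-bet in type 1 cells. CXCR6 binds CXCL16 and is common on tissue-resident lymphocytes, CXCR5 binds CXCL13 and leads cells into B cell follicles, CXCR4 binds CXCL12 and holds cells in bone marrow and other niches, and CX3CR1 binds CX3CL1 and is best known on monocytes and on cytotoxic T and NK cells. In a bulk library a lower level can come from fewer cells that express a gene or from less RNA per cell, and these cannot be told apart.

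On GRCm39, with GENCODE M39 gene models, Cxcr3 (ENSMUSG00000050232) lies on chromosome X at 100775141-100777875, Cxcr4 (ENSMUSG00000045382) on chromosome 1 at 128515936-128520044, Cxcr5 (ENSMUSG00000047880) on chromosome 9 at 44423083-44473174, Cxcr6 (ENSMUSG00000048521) on chromosome 9 at 123635534-123640825 and Cx3cr1 (ENSMUSG00000052336) on chromosome 9 at 119877749-119898945. All are protein-coding, and Cxcr6 is the only one on the plus strand. Levels per kb below divide by the merged exon bases, from 1731 for Cxcr3 to 4657 for Cx3cr1. Cxcr5 shares 118 exon bases (3.54% of its exons) with Bcl9l on the other strand, Cx3cr1 shares 78 (1.67%) with Gm33858, and Cxcr6 lies inside Fyco1 without a shared exon base. The sources used here do not state whether reads were counted by strand, so reads in those shared bases cannot be assigned.

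The upstream sequences of Cxcr3 and Cxcr6 are shown because these 2 receptors varied together across the libraries and because Tbx21, which encodes T-bet, followed Cxcr3 most closely. RefSeq start sites on GRCm38.p6 were available for 4 of the 5 genes, and Cxcr5 was not among them. Each line gives the 250 bases before the start, 5′ to 3′ on the strand of the gene, with Cxcr3 at chrX:101734148-101734397 (minus) and Cxcr6 at chr9:123806227-123806476 (plus). Capitals mark a T-box half-site (TCACAC) or a RUNX core (TGTGGT), searched on both strands (GTGTGA and ACCACA as the reverse letters).
Cxcr3: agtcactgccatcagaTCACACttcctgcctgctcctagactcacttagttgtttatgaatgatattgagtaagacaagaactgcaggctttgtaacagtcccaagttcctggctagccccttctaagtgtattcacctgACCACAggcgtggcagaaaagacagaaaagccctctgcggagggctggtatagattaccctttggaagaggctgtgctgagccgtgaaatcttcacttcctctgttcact
Cxcr6: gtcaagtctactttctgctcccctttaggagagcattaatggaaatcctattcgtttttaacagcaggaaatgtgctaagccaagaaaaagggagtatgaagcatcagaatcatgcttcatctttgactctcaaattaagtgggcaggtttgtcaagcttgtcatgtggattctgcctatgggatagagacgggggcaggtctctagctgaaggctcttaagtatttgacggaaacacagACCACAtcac
The Cxcr3 window held 1 T-box half-site, 234 to 229 bases before the start, and 1 RUNX core, 110 to 105 bases before it. The Cxcr6 window held 1 RUNX core 10 to 5 bases before the start and no T-box half-site. Cx3cr1 had 1 RUNX core 54 to 49 bases before its start, and Cxcr4 had neither motif. Among 32851 RefSeq windows of this length 12.3% held the T-box half-site, 14% the RUNX core and 2.05% both. These matches describe letters in 250 bases and say nothing of binding.

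All 24 libraries had Foxp3 and Cd4, and the kTreg label could be checked on its sort marker. Klrg1 was 16559 to 41561 in kTreg libraries against 1 to 357 in the others. The libraries held 15045747 to 29521942 reads on the genes of the table. Several libraries stood apart. The 3 young libraries numbered 2 had B cell markers summing to 20896 (rTreg), 12126 (aTreg) and 9894 (kTreg), against 626 to 2076 in the 21 others. Summed macrophage and monocyte markers were 10486 to 27405 in old rTreg libraries, 259 to 429 in old aTreg and 2221 to 3859 in old kTreg libraries, and in the young they were 105 to 1424 outside the libraries numbered 2 and 9876, 3577 and 34425 in their rTreg, aTreg and kTreg members. Young kTreg replicate 4 listed 4913 genes at 0, against 419 to 2756 in the other 23 libraries. In old aTreg replicate 2 the 8 Treg identity genes summed to 59215, against 85447 to 95508 in the 3 other old aTreg libraries. Values for the receptors are given below with these libraries included, and the text gives each call that changed without all 3 young libraries numbered 2, without young kTreg replicate 4 or without old aTreg replicate 2.

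**Figure D1:**
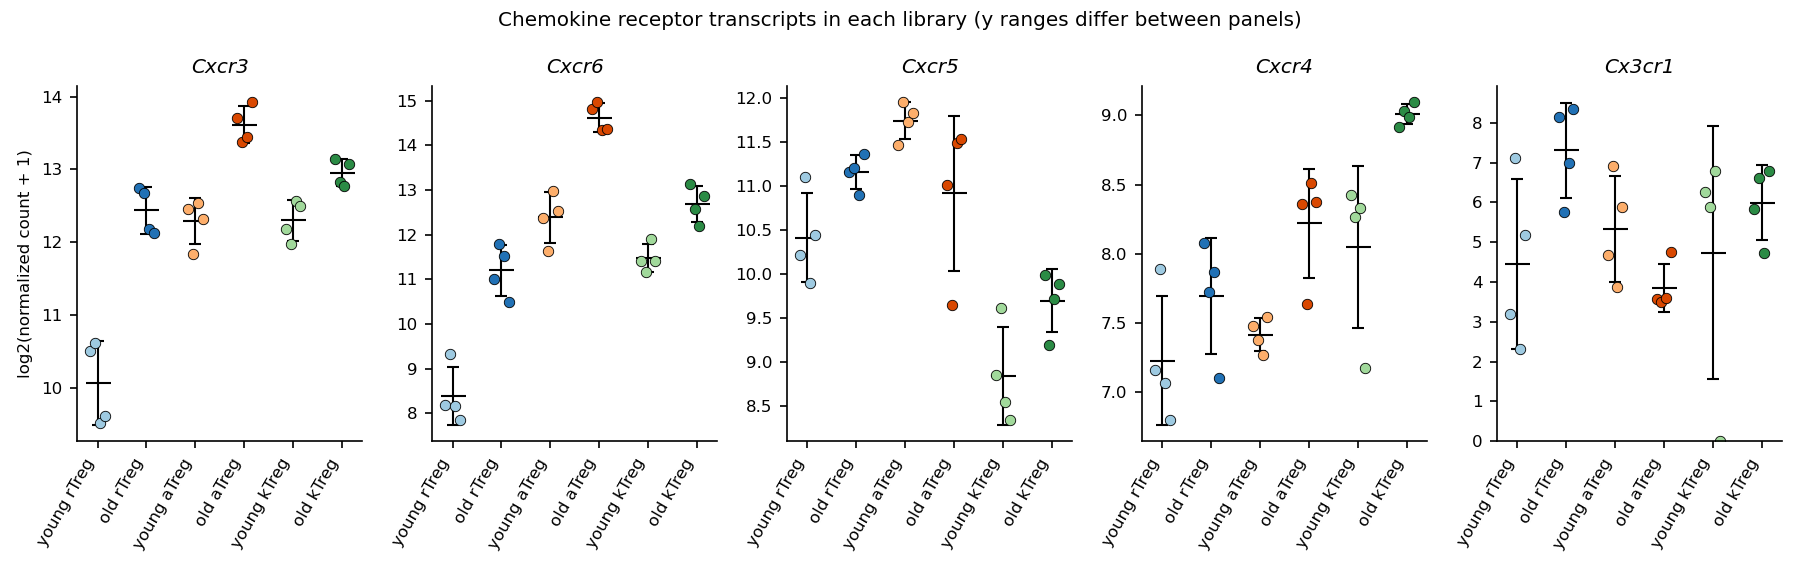
Level of each receptor gene in each of the 24 libraries, as log2(normalized count + 1), by group (x axis). Points are libraries, the horizontal tick and bars are the mean and SD of 4, and each panel has its own y range. Cxcr3 and Cxcr6 were highest in old aTreg cells, Cxcr5 was lowest in kTreg cells of both ages, Cxcr4 was highest in old kTreg cells, and Cx3cr1 scattered within groups.

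Between subsets, over both ages, kTreg cells had more Cxcr3, Cxcr4 and Cxcr6 and less Cxcr5 RNA than rTreg cells, and less Cxcr5 and Cxcr6 and more Cxcr4 RNA than aTreg cells. A gene was called where limma's Benjamini-Hochberg adjusted p was below 0.05 and the fold change above 1.5. By this rule 3 of the 5 receptor genes were called between kTreg and aTreg cells, where 7.39% of all genes tested were called, 4 between kTreg and rTreg cells (15.5% of all genes) and 2 between aTreg and rTreg cells (8.01%). Old cells had more Cxcr3 and Cxcr6 RNA than young cells in rTreg and in aTreg cells, which made 2 of 5 called in rTreg cells (5.83% of all genes) and 2 in aTreg cells (2.71%). Old and young kTreg cells gave 0 calls among the 5 with limma (1.26% of all genes), 4 at an unadjusted p below 0.05 with the same fold, 0 with edgeR and 2 with DESeq2. Shares of all genes here and below belong to limma's adjusted rule. None is given for the unadjusted p, so counts at it have no share to be compared with. Fold changes are on the scale of log2(normalized count + 1).

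Cxcr3, the receptor of type 1 lymphocytes, was lowest in young rTreg cells, at 1459, 1575, 732 and 785 normalized counts in replicates 1 to 4. Old rTreg cells had 6885, 6576, 4666 and 4484. In young aTreg cells the normalized counts were 5638, 3676, 5973 and 5102, and in old aTreg cells 13408, 10643, 11181 and 15559. The young kTreg libraries had 4629, 4012, 6061 and 5765 and the old ones 9047, 7241, 6998 and 8652. In every subset the old libraries lay above all young ones, and the 4 young rTreg libraries lay below all 20 others. kTreg cells had 2.59-fold more Cxcr3 RNA than rTreg cells (log2 difference 1.38 ± 0.16, SE, adjusted p = 1.5e-06, limma), with groups that did not overlap at either age. aTreg cells had 3.25-fold more than rTreg cells (1.70 ± 0.16, adjusted p = 5.6e-07), also without overlap at either age. In old mice alone 2 of the 5 genes, Cxcr3 and Cxcr6, were called between aTreg and rTreg cells (8.6% of all genes). Between kTreg and aTreg cells the log2 difference was -0.33, with a 95% interval of -0.66 to 0.01 and an adjusted p of 0.21, and the young groups overlapped. The old groups did not overlap, and old aTreg exceeded old kTreg cells by 0.66 on the log2 scale (adjusted p = 0.14, limma). That difference in old mice was called in 2 of 44 alternative settings.

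With age, Cxcr3 RNA rose 5.17-fold in rTreg cells (log2 difference 2.37 ± 0.23, adjusted p = 1.5e-06) and 2.50-fold in aTreg cells (1.32 ± 0.23, adjusted p = 0.0015). In kTreg cells the difference was 0.65 on the log2 scale (95% interval 0.18 to 1.13, adjusted p = 0.17), although the old and young libraries did not overlap. The difference of the age effects between kTreg and rTreg cells was itself called, at -1.72 ± 0.32 on the log2 scale (adjusted p = 0.0047), the only 1 of the 5 receptor genes called there, where 3.02% of all genes were. Put by age, kTreg exceeded rTreg cells 4.71-fold in the young (adjusted p = 3.4e-07), and by 0.52 on the log2 scale in the old (95% interval 0.04 to 0.99, adjusted p = 0.16). The difference of age effects between kTreg and aTreg cells (-0.67, adjusted p = 0.53) and that between aTreg and rTreg cells (-1.05, adjusted p = 0.11) did not pass, and without the young libraries numbered 2 the latter did (-1.38, adjusted p = 0.029). For these 2 differences limma, edgeR and DESeq2 each called 0 of the 5 receptor genes (limma called 0.156% and 1.56% of all genes by the adjusted rule). In each, 3 of the 5 had an unadjusted p below 0.05 with the same fold, a looser rule for which no share of all genes is given. In the order of group means, old aTreg, old kTreg, old rTreg, young kTreg, young aTreg and young rTreg, the last step was the only one between neighbours that was called (2.22 on the log2 scale, adjusted p = 4.6e-06). Old rTreg libraries also had more NK cell marker RNA, with sums of 9308 to 12617 against 5331 to 6767 in young rTreg, more plasma cell marker RNA, with sums of 8612 to 14442 against 4428 to 5798, and more myeloid marker RNA as given above. The part of these in the Cxcr3 and Cxcr6 values of old rTreg cells was not tested. The old aTreg libraries had NK cell sums of 8013 to 12785 (young 4440 to 5766) with myeloid sums of at most 429.

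Cxcr6, the receptor for CXCL16, reached the highest level of the 5 genes. Young rTreg libraries had 290, 638, 287 and 229 normalized counts, and old rTreg libraries 2064, 3527, 2933 and 1445. In young aTreg cells Cxcr6 was at 5334, 3169, 8120 and 5958, and in old aTreg cells at 28941, 32065, 20659 and 21000. Young kTreg cells had 2725, 2283, 3851 and 2700, and old kTreg cells 9016, 6062, 4710 and 7471. As for Cxcr3, each old group lay wholly above the young group of its subset. Old aTreg libraries were the highest of all, and young rTreg the lowest. aTreg cells had 13.1-fold more Cxcr6 RNA than rTreg cells (log2 difference 3.71 ± 0.23, adjusted p = 5.3e-10) and kTreg cells 4.89-fold more (2.29 ± 0.23, adjusted p = 1.3e-07), both without overlap at either age. kTreg cells had 2.68-fold less than aTreg cells (-1.42 ± 0.23, adjusted p = 0.00022), without overlap in the old groups and with overlap in the young.

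Split by age, the kTreg to aTreg difference of Cxcr6 was called in the old (-1.93 ± 0.32, adjusted p = 0.0020, with groups that did not overlap). Of the 5 receptor genes Cxcr6 was the only 1 called there, where 2.2% of all genes were called. In the young the difference was -0.91 (95% interval -1.58 to -0.25, adjusted p = 0.082), where 1 of the 5 genes, Cxcr5, was called against 6.95% of all genes. It was called in 5 of 44 alternative settings, among them without the young libraries numbered 2 (-1.06, adjusted p = 0.032). The change of this difference with age was -1.01 (adjusted p = 0.48), so the effect was not shown to differ with age. Between old kTreg and old rTreg cells the difference was 1.49 (adjusted p = 0.0042), which no longer passed without the old libraries numbered 4 (1.20, adjusted p = 0.066). Old rTreg cells had 7.08-fold more Cxcr6 RNA than young ones (2.82 ± 0.32, adjusted p = 1.0e-05) and old aTreg cells 4.71-fold more (2.24 ± 0.32, adjusted p = 0.00028). In kTreg cells the age difference was 1.22 (95% interval 0.56 to 1.89, adjusted p = 0.059). The difference of age effects between kTreg and rTreg cells, -1.60 ± 0.45, had an adjusted p of 0.056. Without the young libraries numbered 2, which held B cell and myeloid marker RNA, it was -2.02 (adjusted p = 0.0046), and the age difference in kTreg cells was 1.12 (adjusted p = 0.036). Neighbours in the order of the means differed between old aTreg and old kTreg and between old rTreg and young rTreg cells. They did not pass the thresholds between old kTreg and young aTreg, young aTreg and young kTreg, or young kTreg and old rTreg cells.

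Summed NKT and MAIT cell markers (Zbtb16, Cd160 and Il23r) were 1053 to 2085 in aTreg libraries, 284 to 779 in rTreg and 154 to 627 in kTreg libraries. They were highest in the subset with the most Cxcr6 RNA, and their part in the aTreg values was not tested. In the old aTreg libraries alone those sums were 1722, 2085, 1532 and 1955.

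**Figure D2:**
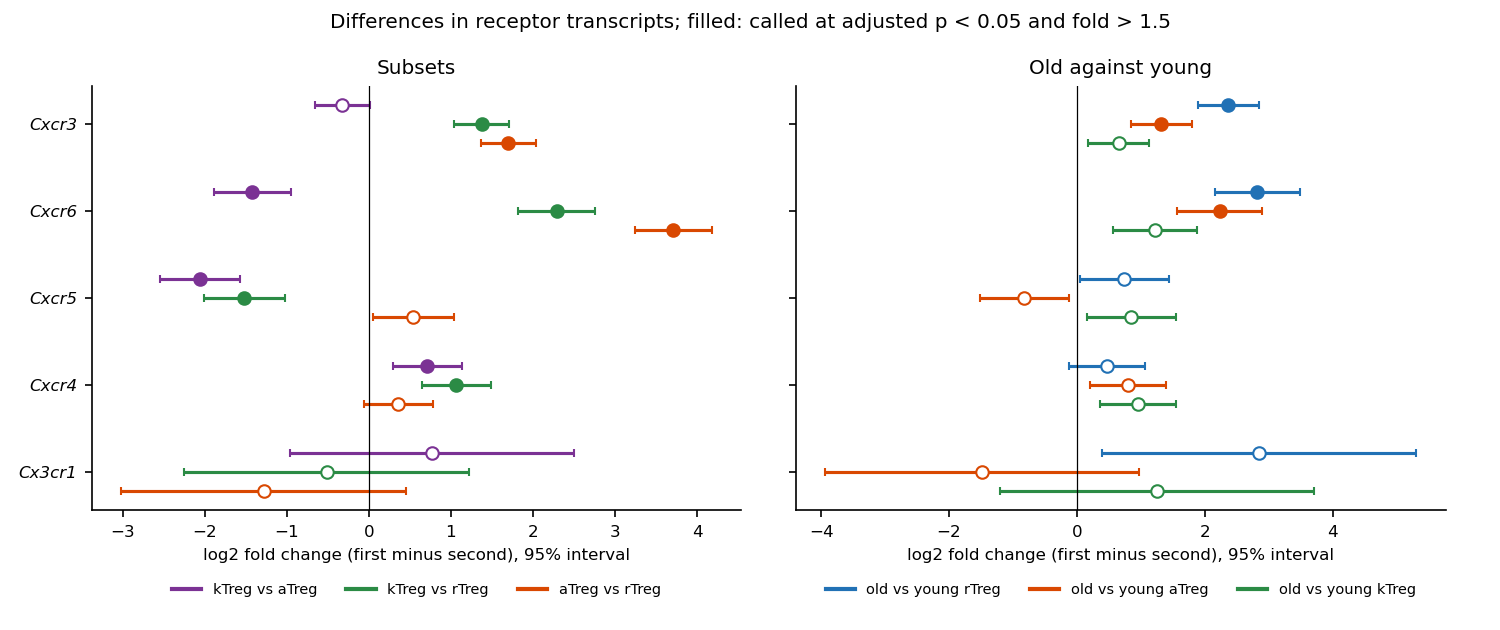
Log2 fold change of each receptor gene between subsets over both ages (left) and between old and young mice within a subset (right), with the 95% interval from limma. Filled circles passed an adjusted p below 0.05 and a fold above 1.5. Cxcr5 was the 1 gene called lower in kTreg than in rTreg cells, Cxcr3 and Cxcr6 were higher in old than in young rTreg and aTreg cells, and the intervals of Cx3cr1 are wide.

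Cxcr5, the receptor that leads cells to B cell follicles, was the 1 gene of the 5 called lower in kTreg cells than in both other subsets. Young kTreg libraries had 462, 784, 373 and 324 normalized counts, and old kTreg libraries 1015, 582, 836 and 947. Young aTreg cells had 2810, 3949, 3371 and 3622 and old aTreg cells 2057, 799, 2854 and 2948. Levels in young rTreg cells were 1188, 2189, 951 and 1385, and in old rTreg cells 2273, 2357, 1908 and 2626. In the young, the kTreg libraries lay below all aTreg and rTreg libraries. In the old, they lay below all rTreg libraries, while old aTreg replicate 2 (799) fell among them. kTreg cells had 4.16-fold less Cxcr5 RNA than aTreg cells (log2 difference -2.06 ± 0.24, adjusted p = 6.4e-06) and 2.86-fold less than rTreg cells (-1.51 ± 0.24, adjusted p = 5.6e-05).

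The difference between kTreg and aTreg cells was -2.90 ± 0.33 in young mice (adjusted p = 1.3e-05) and -1.22 ± 0.33 in old mice (adjusted p = 0.055). Old aTreg replicate 2 had the lowest Treg identity sum and the lowest Cxcr5 of its group. Without it the value in old mice was -1.64 (adjusted p = 0.0042). At the same -1.22 the difference in old mice also passed without the young libraries numbered 2 (adjusted p = 0.035) or young kTreg replicate 4 (adjusted p = 0.030), which change the spread and not the value. The change of this difference with age was 1.68 ± 0.47 (adjusted p = 0.25) and did not pass. aTreg cells had 2.51-fold more Cxcr5 RNA than rTreg cells in the young (1.33 ± 0.33, adjusted p = 0.025). There 3 of the 5 genes were called (3.35% of all genes), the others being Cxcr3 and Cxcr6. The call for Cxcr5 was lost when any of young rTreg replicates 1, 3 and 4, young aTreg replicates 2, 3 and 4 or the young libraries numbered 1, 3 or 4 was left out, with adjusted p up to 0.24. Over both ages aTreg cells did not differ from rTreg cells by the call (0.54, adjusted p = 0.17), and without old aTreg replicate 2 they did (0.76, adjusted p = 0.011). The age differences were 0.74 in rTreg (adjusted p = 0.19), -0.82 in aTreg (0.26) and 0.85 in kTreg cells (0.23), and none passed. No 2 neighbours in the order of group means, young aTreg, old rTreg, old aTreg, young rTreg, old kTreg and young kTreg, were called different. B cells express Cxcr5, and the 3 young libraries numbered 2, which held B cell marker RNA, had the highest Cxcr5 of their groups (2189, 3949 and 784). Without those libraries kTreg cells differed from aTreg cells by -2.15 (adjusted p = 9.3e-06) and from rTreg cells by -1.53 (adjusted p = 7.9e-05).

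Cxcr4, the receptor for CXCL12, was expressed at a low level and was highest in old kTreg cells, at 483, 524, 506 and 546 normalized counts. Young kTreg libraries had 343, 307, 321 and 144. In aTreg cells Cxcr4 was at 177, 165, 154 and 185 in the young and at 328, 198, 364 and 331 in the old. The rTreg libraries had 142, 236, 133 and 110 in the young and 269, 210, 233 and 136 in the old. All 4 old kTreg libraries lay above the 20 others. Over both ages kTreg cells had 2.10-fold more Cxcr4 RNA than rTreg cells (log2 difference 1.07 ± 0.20, adjusted p = 0.00045), without overlap in the old groups and with overlap in the young. They had 1.64-fold more than aTreg cells (0.71 ± 0.20, adjusted p = 0.023), and here too the young groups overlapped and the old did not. The latter call was lost without old aTreg replicate 2 (0.61, adjusted p = 0.059), without young kTreg replicate 1 (0.65, adjusted p = 0.050), or without the young libraries numbered 1, the young numbered 3 or the old numbered 2 (0.61 to 0.66, adjusted p 0.089 to 0.11). Between aTreg and rTreg cells the difference was 0.36 (95% interval -0.06 to 0.78, adjusted p = 0.32).

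Within old mice kTreg exceeded rTreg cells in Cxcr4 by 1.32 ± 0.29 (adjusted p = 0.0047), one of 3 receptor genes called there (8.86% of all genes). Without the old libraries numbered 4 the value was 1.09 (adjusted p = 0.067), and only 1 of the 5 genes stayed called. In young mice it was 0.82 ± 0.29 (adjusted p = 0.048), one of 4 called (15.8% of all genes), a call lost in 27 of 44 alternative settings. Old cells had more Cxcr4 RNA on average in each subset, by 0.47 in rTreg (adjusted p = 0.37), 0.80 in aTreg (0.17) and 0.96 in kTreg cells (0.10), and none of these passed. Old and young libraries did not overlap in aTreg and in kTreg cells. Without young kTreg replicate 4 the age difference in aTreg cells passed at the same value (0.80, adjusted p = 0.048), as only the spread changed. The difference between young kTreg and aTreg cells passed as well (0.92, adjusted p = 0.024). No neighbours in the order old kTreg, old aTreg, young kTreg, old rTreg, young aTreg and young rTreg were called different.

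Cx3cr1, the fractalkine receptor, had 0 to 422 reads per library and varied widely within groups. In young rTreg cells the normalized counts were 8.22, 137, 3.95 and 35.1, and in old rTreg cells 282, 53.1, 125 and 322. Young aTreg cells had 24.5, 119, 13.7 and 58.0, and old aTreg cells 10.9, 10.3, 11 and 26. Young kTreg cells had 75.8, 58.3, 110 and 0, and old kTreg cells 55.5, 96.4, 25.7 and 110. The 0 was in young kTreg replicate 4, the library with the most genes at 0, and allows up to 3 reads or 2.75 normalized counts by counting error. Groups overlapped in every comparison except old aTreg against old rTreg cells. With limma, Cx3cr1 was called in 0 of the 15 comparisons, and in 3 at an unadjusted p below 0.05 with the same fold, 1 with edgeR and 1 with DESeq2. The lowest adjusted p belonged to old aTreg against old rTreg cells, with a log2 difference of -3.45 (95% interval -5.90 to -0.99, adjusted p = 0.067, and 0.040 with edgeR and 0.0022 with DESeq2). Without young kTreg replicate 4, the library with the 0, limma called Cx3cr1 in 3 comparisons, old aTreg against old rTreg cells (-3.45, adjusted p = 0.0064), old against young rTreg cells (2.85, adjusted p = 0.026) and the age difference of aTreg against rTreg cells (-4.33, adjusted p = 0.041). None of the 3 uses young kTreg cells, so leaving that library out changed the spread and not the values. Between kTreg and aTreg cells the difference was 0.77 (95% interval -0.97 to 2.50), and between kTreg and rTreg cells -0.51 (-2.25 to 1.22). No neighbours in the order of group means were called.

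Cx3cr1 levels stood beside the myeloid marker sums as follows. Old rTreg cells, with the highest Cx3cr1 of the 6 groups, had myeloid sums of 17917, 10486, 27405 and 10754, and old aTreg cells, with the lowest, had 384, 259, 429 and 292. In the young rTreg and aTreg groups the highest Cx3cr1 library was replicate 2 (137 and 119), whose myeloid sums (9876 and 3577) were also the highest of their groups. Young kTreg replicate 2 had a sum of 34425 and 58.3 normalized counts of Cx3cr1, which was not the highest of its group. Old rTreg libraries also had more platelet marker RNA, 451 to 981 against 42 to 74 in young rTreg. The part of other cells in the Cx3cr1 values was not tested.

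**Figure D3:**
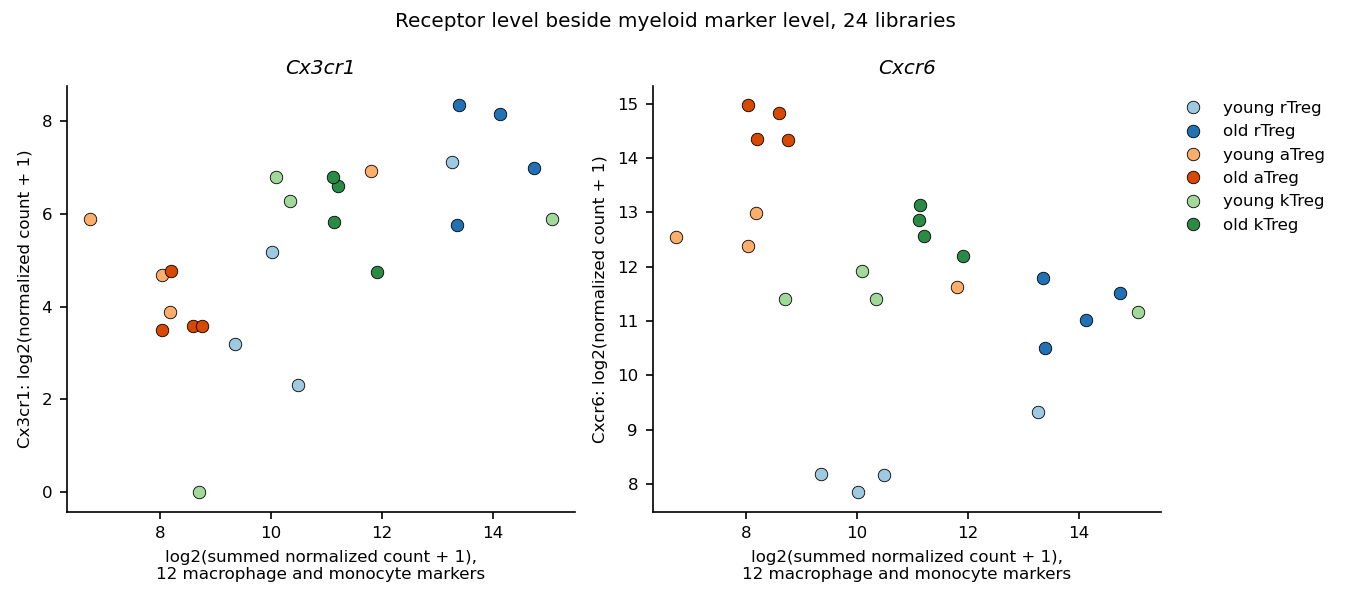
Level of Cx3cr1 (left) and Cxcr6 (right), as log2(normalized count + 1), against the log2 of the summed normalized counts of 12 macrophage and monocyte markers plus 1, for 24 libraries coloured by group. Old rTreg libraries are high on the x axis and 2 of them have the highest Cx3cr1 levels, and old aTreg libraries are low on the x axis and highest in Cxcr6.

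Levels of different receptors were compared per kb of exon. In young rTreg cells Cxcr3 made up 47.9% ± 7.5 (SD, n = 4) of the summed normalized count per kb of the 5 genes, Cxcr5 31.7% ± 5.9 and Cxcr6 13.4% ± 3.0. In old rTreg cells the share of Cxcr3 was 60.3% ± 5.2, that of Cxcr5 13.1% ± 3.6 and that of Cxcr6 23.6% ± 6.8. Old aTreg cells had the largest share of Cxcr6, 61.5% ± 8.4, against 40.6% ± 6.5 in young aTreg cells. In kTreg cells, as in rTreg cells, Cxcr3 had the largest share at both ages, 62.0% ± 4.0 in young and 53.5% ± 3.2 in old kTreg cells. Its share was 42.3% ± 3.2 in young and 34.5% ± 6.8 in old aTreg cells. Cxcr5 had 3.26% ± 1.91 in young and 2.93% ± 0.55 in old kTreg cells. In aTreg cells Cxcr5 had 15.5% ± 5.5 in the young and 3.15% ± 1.67 in the old, the latter near its kTreg shares. As group means Cxcr4 was at 0.80% to 6.34% and Cx3cr1 at 0.01% to 0.84% of the total. The ratio of Cxcr6 to Cxcr3 per kb ran from 0.29 ± 0.09 in young rTreg to 1.87 ± 0.62 in old aTreg cells, with 0.51 ± 0.06 and 0.75 ± 0.12 in young and old kTreg cells. The ratio of Cxcr3 to Cxcr5 was 1.58 ± 0.55 in young rTreg, 2.95 ± 0.90 in young aTreg and 23.7 ± 11.3 in young kTreg cells.

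**Figure D4:**
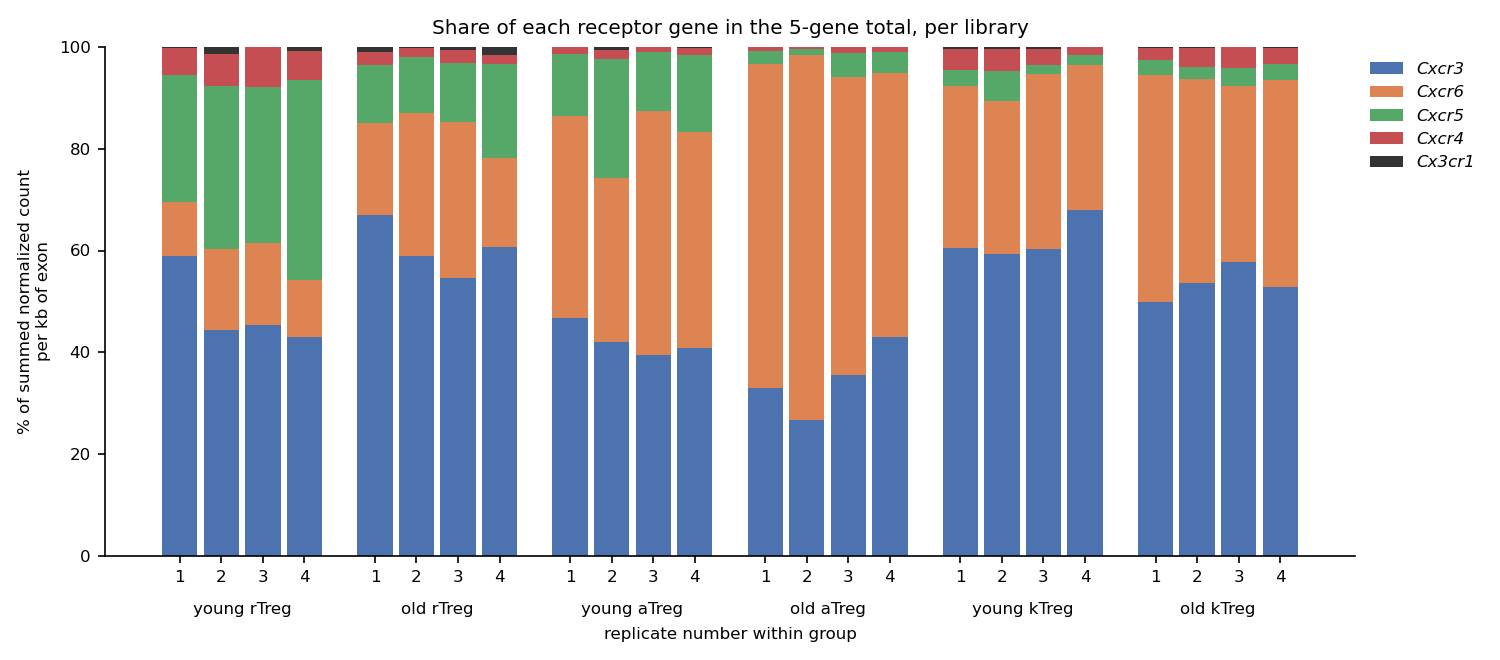
Share of each of the 5 receptor genes in their summed normalized count per kb of exon, in percent, 1 bar for each library (x axis, replicate number within group). The share of Cxcr5 is largest in young rTreg cells, that of Cxcr6 in old aTreg cells, and Cxcr3 is the largest share in every kTreg and every rTreg library.

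Across the 24 libraries Cxcr3 and Cxcr6 followed each other with Pearson's r = 0.94 on the log2 scale, while Cxcr5 had r between -0.28 and 0.25 with the other 4. These values describe libraries that share groups. The 3 genes most like Cxcr3 were Tbx21, the type 1 transcription factor T-bet (r = 0.96), and the serine protease inhibitors Serpina3f (0.96) and Serpina3g (0.94). Cxcr6 was followed by Krt83, a hair keratin (0.97), Serpina3f (0.96) and Podnl1 (0.94), and Cxcr5 by Ccdc50 (0.94), Tbc1d4, a Rab GTPase-activating protein (0.93), and Prg4, lubricin (0.85). Cxcr4 was followed by Gm3264, a predicted gene (0.86), Mapkapk3, a kinase downstream of p38 (0.86), and Slc66a3 (0.86). Reads of Serpina3f, Serpina3g and Gm3264 may be shared with near-identical copies, and their values are uncertain for that reason. The genes most like Cx3cr1 were Eftud2 of the spliceosome (0.87), the SNARE protein gene Ykt6 (0.86) and Pcif1 (0.85). Without young kTreg replicate 4, left out after the data were seen, these 3 had r of 0.82, 0.78 and 0.79.

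Of the 7 ligand genes, 5 were in the table and tested. Between aTreg and rTreg cells 3 of 5 rose (8.01% of all genes called), with a median log2 difference of 2.25 against 0.06 over all genes tested. They were Cxcl10, a ligand of CXCR3 (2.34, adjusted p = 3.1e-05), Cx3cl1, the ligand of CX3CR1 (4.29, adjusted p = 0.00020), and Cxcl11 (2.25, adjusted p = 0.027). Cxcl10 was at 77 to 165 normalized counts in young rTreg, 337 to 1098 in young aTreg and 871 to 1588 in old aTreg cells, whereas Cxcl11 never exceeded 35. Between kTreg and rTreg cells, where 15.5% of all genes were called, 2 of 5 rose (median 1.02), Cxcl10 (2.45, adjusted p = 4.7e-06) and Cx3cl1 (4.18, adjusted p = 8.8e-05). Between kTreg and aTreg cells limma called 0 (7.39% of all genes called), and 0 had an unadjusted p below 0.05 with the fold. With age limma called 0 of the 5 in each subset, where 5.83% (rTreg), 2.71% (aTreg) and 1.26% (kTreg) of all genes were called. At an unadjusted p below 0.05 with the same fold there were 2 in rTreg, 3 in aTreg and 2 in kTreg cells, without a share of all genes to compare.

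Among 8 other CXC, XC and atypical receptor genes 5 were tested. Between kTreg and rTreg cells 2 rose and 1 fell (15.5% of all genes called), with a median of 1.28 against -0.01 over all genes. Ccrl2, an atypical receptor that binds chemerin, rose by 2.35 (adjusted p = 4.5e-09), with 852 to 1749 normalized counts in kTreg and 182 to 355 in rTreg libraries. Ackr4, a scavenging receptor, rose by 1.58 (adjusted p = 0.048) at no more than 28 normalized counts anywhere. Cxcr2, a neutrophil receptor, fell by 4.69 on the log2 scale (adjusted p = 0.0014). Its highest values, 396 to 1608, were in old rTreg libraries, of which replicates 2 and 3 had neutrophil marker sums of 7578 and 11920 and the other 2 had 177 and 278. The part of neutrophils in that value was not tested. Ccrl2 was also higher in kTreg than in aTreg cells (1.48, adjusted p = 1.2e-05), while Ackr3, an atypical receptor that takes up CXCL12, was lower (-2.78, adjusted p = 0.044). With age 1 of the 5, Cxcr2, was called higher in rTreg cells, where 5.83% of all genes were called. In aTreg and kTreg cells limma called 0 (2.71% and 1.26% of all genes called), and 0 had an unadjusted p below 0.05 with the fold.

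Of 26 signalling genes downstream of the receptors, 3 rose and 2 fell between kTreg and rTreg cells (median 0.03, all genes -0.01), where 15.5% of all genes were called. The ones that rose were the phospholipase gene Plcb3 (1.60, adjusted p = 2.2e-05), the G protein gene Gnaq (1.56, adjusted p = 0.00016) and Prex1, a Rac exchange factor (0.68, adjusted p = 0.0044), and those that fell were Rasgrp2, which activates Rap1 (-0.97, adjusted p = 0.00054), and Pik3r5, a regulatory subunit of PI3Kγ (-0.60, adjusted p = 0.0046). Of 21 desensitization and RGS genes, 2 rose and 2 fell between kTreg and rTreg cells (median -0.01), against the same 15.5% of all genes. Rgs16 rose by 1.90 (adjusted p = 7.6e-07) and Rgs3 by 0.65 (adjusted p = 0.00019), and the values were -1.06 for Rgs10 (adjusted p = 7.2e-05) and -2.37 for Rgs18 (adjusted p = 0.023). Old rTreg libraries had platelet marker sums of 451 to 981 and myeloid sums of 10486 to 27405. In old kTreg libraries these were 101 to 457 and 2221 to 3859. The part of other cells in the Rgs18 value was not tested. RGS proteins end G protein signals. Rgs16 rose also between aTreg and rTreg cells (1.22, adjusted p = 0.00047), between kTreg and aTreg cells (0.67, adjusted p = 0.039) and between old and young rTreg cells (1.33, adjusted p = 0.0080). With age 2 of the 26 signalling genes rose in rTreg (5.83% of all genes called) and 1 in aTreg cells (2.71%). In kTreg cells limma called 0 of the 26 (1.26% of all genes called), and 1 had an unadjusted p below 0.05 with the fold.

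The type 1 list linked to Cxcr3 had 14 genes, all tested. Between kTreg and rTreg cells 5 rose and 2 fell (median 0.43, 15.5% of all genes called). Il12rb1 (1.75, adjusted p = 5.9e-08), Il18rap (2.15, adjusted p = 2.7e-07) and Il18r1 (1.37, adjusted p = 0.00011), receptor chains for IL-12 and IL-18, rose most clearly by p. Ifngr2, a chain of the interferon-γ receptor (-0.81, adjusted p = 0.00024), and Eomes, a T-box factor (-2.75, adjusted p = 0.00064), fell. Between old and young rTreg cells, where 5.83% of all genes were called, 5 again rose and 1 fell (median 0.80, all genes -0.08). Tbx21 rose by 2.38 there (adjusted p = 2.0e-05), from 131 to 265 normalized counts in the young to 594 to 1168 in the old, with groups that did not overlap. In aTreg cells 2 rose and 1 fell with age (2.71% of all genes called) and in kTreg cells 2 rose (1.26%). Between aTreg and rTreg cells 5 rose and 1 fell (median 0.87, 8.01% of all genes called), Tbx21 among those that rose (1.51, adjusted p = 2.8e-05). Eomes is also an NK cell marker and was counted in both lists. Between kTreg and aTreg cells only Il18rap of the 14 was called (0.96, adjusted p = 0.0061), against 7.39% of all genes.

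Of 17 genes in the follicular list linked to Cxcr5, 6 rose and 7 fell between kTreg and rTreg cells (median -0.75), and 4 rose and 6 fell between kTreg and aTreg cells (median -0.35, all genes -0.08). Over all genes 15.5% and 7.39% were called in these comparisons. Between kTreg and rTreg cells the ones that rose first by p were Maf (2.22, adjusted p = 4.6e-09), Icos (1.69, adjusted p = 8.1e-09) and Prdm1 (3.15, adjusted p = 9.5e-09). Id3 (-2.02, adjusted p = 4.5e-09), Tcf7 (-1.91, adjusted p = 1.6e-08) and Lef1 (-1.18, adjusted p = 1.7e-08) fell. Tcf7, which encodes the transcription factor TCF-1 of follicular and memory T cells, was at 2917 to 8547 normalized counts in kTreg and 11551 to 24003 in all other libraries. Prdm1 encodes BLIMP-1, which opposes the follicular fate, so the counts and medians of this list have no single direction. Il21, the cytokine gene of follicular helper cells, was lower in kTreg than in aTreg cells (-3.28, adjusted p = 0.0015). With age 6 of the 17 rose and 2 fell in rTreg cells (5.83% of all genes called), 4 fell in aTreg cells (2.71%), and 1 rose and 2 fell in kTreg cells (1.26%). The defining factor gene Bcl6 was not called between kTreg and rTreg or between kTreg and aTreg cells. It was at 309 to 528 in young aTreg and 0 to 339 in young kTreg cells, a group whose replicate 4 listed 4913 genes at 0.

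The residency list linked to Cxcr6 had 13 genes. It also holds genes of egress and homing such as S1pr1 and Ccr7, so its counts and medians have no single direction. Between aTreg and rTreg cells, where 8.01% of all genes were called, 6 rose and 4 fell (median 0.53, all genes 0.06). Rora (1.43, adjusted p = 1.1e-06), Hic1 (2.24, adjusted p = 6.2e-06) and Prdm1 (1.53, adjusted p = 0.00036), transcription factors, rose first by p. Klf2 (-1.40, adjusted p = 3.2e-05), the egress receptor gene S1pr1 (-1.33, adjusted p = 3.4e-05) and Ccr7, a receptor for lymph node homing (-1.17, adjusted p = 0.00049), fell. Between kTreg and rTreg cells 6 rose and 3 fell (median 0.57, 15.5% of all genes called). Between kTreg and aTreg cells 4 rose and 1 fell (median 0.07, 7.39% of all genes called), although Cxcr6 itself was lower in kTreg cells. Itgae was higher in kTreg than in aTreg cells (1.48, adjusted p = 0.00023), and Ccr7 was lower (-2.10, adjusted p = 5.5e-07). Between old and young rTreg cells, where 5.83% of all genes were called, 5 of the 13 rose (median 0.64). Itgae, which encodes CD103, was among them (2.32, adjusted p = 0.00014). In that comparison limma called 0 of them lower, and 0 were lower at an unadjusted p below 0.05 with the same fold. In aTreg cells 2 rose with age (median 0.29, 2.71% of all genes called). In kTreg cells limma called 0 of 13 (1.26% of all genes called), and 0 had an unadjusted p below 0.05 with the fold.

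Of the genes known to regulate Cxcr4 or its ligand, 12 of 13 were tested. Between kTreg and rTreg cells 3 rose and 3 fell (median -0.13, 15.5% of all genes called). Nr3c1, the glucocorticoid receptor (1.10, adjusted p = 0.00014), Gfi1 (0.92, adjusted p = 0.00038) and Hif1a (0.74, adjusted p = 0.0096) rose. Foxo1 (-0.75, adjusted p = 6.2e-08), Klf2 (-1.09, adjusted p = 0.00018) and Dpp4, which cleaves CXCL12 (-0.66, adjusted p = 0.034), fell. Between kTreg and aTreg cells 1 rose and 2 fell (median 0.01, 7.39% of all genes called). With age limma called 1 of 12 in aTreg cells (2.71% of all genes called). In rTreg and kTreg cells it called 0 (5.83% and 1.26% of all genes called), where 2 and 1 had an unadjusted p below 0.05 with the same fold. Prdm1, Foxo1, Klf2, Runx3, Rgs1, Usp14, Ackr3 and Cxcl12 stand in more than 1 pathway list and were counted in each.

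**Figure D5:**
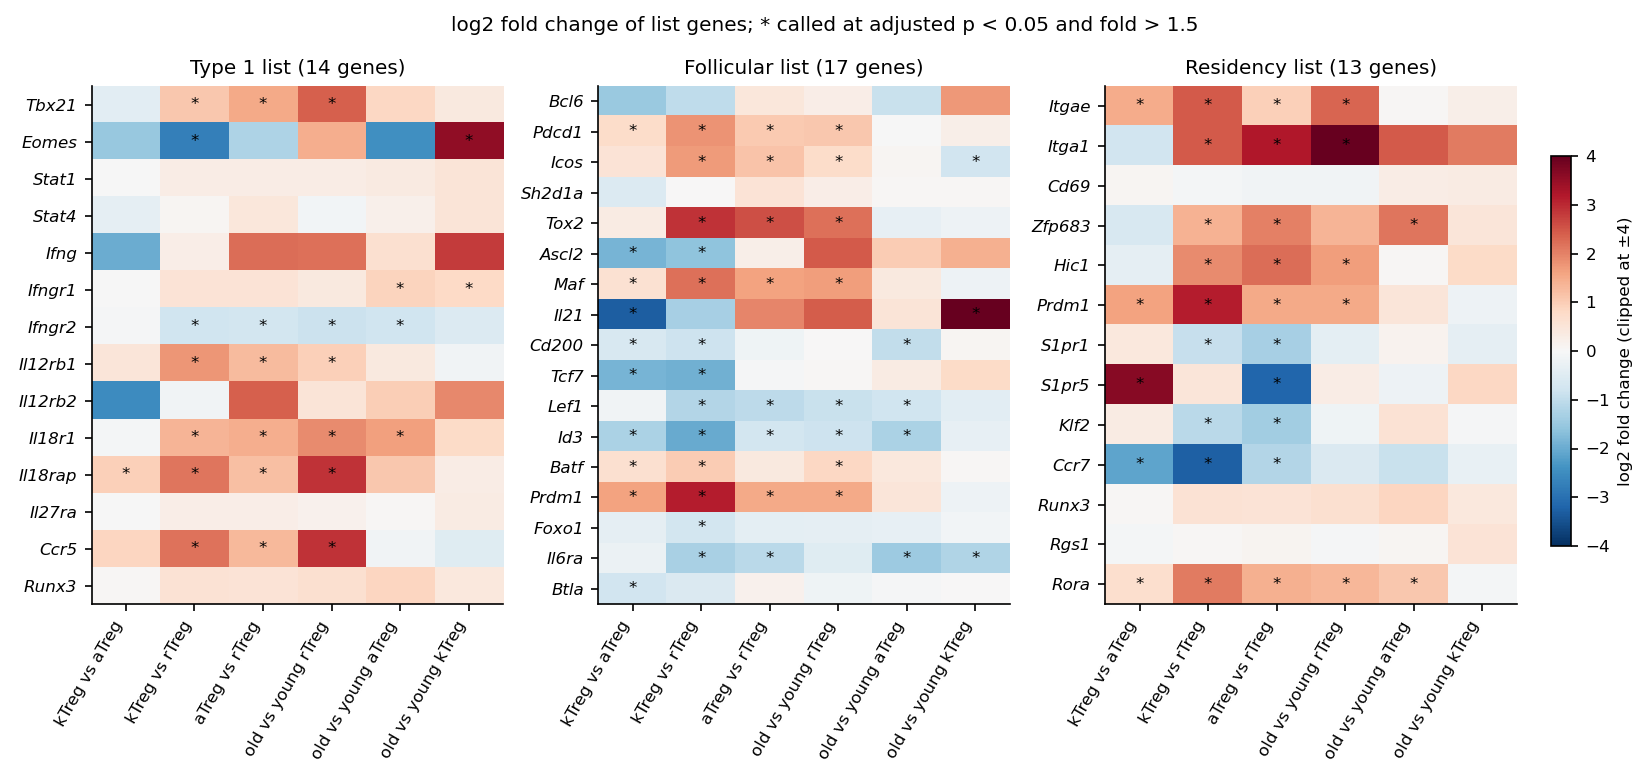
Log2 fold change of the genes of the type 1, follicular and residency lists (rows) in 3 subset and 3 age comparisons (columns), with colours clipped at 4 in either direction and an asterisk for an adjusted p below 0.05 and a fold above 1.5. Tbx21 and the IL-18 receptor genes rose with age in rTreg cells, Tcf7 was lower in kTreg cells than in both other subsets, and Ccr7 was lower in kTreg than in aTreg cells.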

How the data were processed

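RNA was measured in 24 libraries of sorted splenic Treg cells, 4 per group, made with the SMART-Seq v4 kit and sequenced as paired reads of 150 bases. Per the labels and the study's methods, the authors aligned reads to GRCm39 with HISAT2 2.2.1, used SAMtools 1.13, counted reads per gene with HTSeq 1.99.2 and normalized them with DESeq2 1.44.0. The deposited values are a signal, reads divided by 1 size factor per library, and 100% of them came out as whole reads within a tolerance of 0.001. Rows whose gene ID had no name in GENCODE M39 (111) were kept under that ID, and 0 columns were left unmapped. Libraries held 15045747 to 29521942 reads, and the limit for a count of 0 covers counting error only. The annotation release and strand setting are not given in the sources used here. A second deposited file, which repeats the sample names, was not used.

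Log2(value + 1) was fitted with limma 3.58.1 (trend, R 4.3.3) over all 6 groups, for the 16630 genes that reached 10 in 4 or more libraries, and p-values were adjusted over all of them. The edgeR 4.0.16 and DESeq2 1.42.0 tests were run on the recovered reads as alternatives, and all 3 fits were tested on simulated data. Other alternatives changed the pseudocount, filter, scaling, samples in the model, thresholds and the libraries included.

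The 5 receptor genes, the pathway lists and the marker lists were chosen with earlier results of these data known. Named beside the receptors were the 3 genes with the highest Pearson correlation to each, and up to 3 genes in each direction with the smallest p from each list, in the comparison with most calls. Ligand, receptor, Il21, Itgae, Ccr7, Tbx21, Bcl6, Cxcr2 and Rgs16 values in other comparisons were chosen after they were seen. Of the gene IDs, 17353 matched GENCODE M39 and 111 did not. One gene was left out of the lists and is not reported here.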

Additional observations from a re-analysis of the deposited data

Results flagged for a closer look

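Cxcr6 in young rTreg replicate 2 stood apart from its group, with 638 normalized counts against 229 to 290 in the 3 others. The gap to its nearest neighbour was 0.85 of the group's range, above Dixon's 95% critical value for 4 samples. Cx3cr1 in old aTreg replicate 4 stood apart as well, at 26 against 10.3 to 11 (gap 0.96 of the range). Chance alone flags about 1 in 20 groups.

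The age effect on Cxcr3 differed between kTreg and rTreg cells by -1.72 on the log2 scale (adjusted p = 0.0047, limma, tested as an interaction). Old exceeded young rTreg cells by 2.37 and old exceeded young kTreg cells by 0.65. The call held under each of the 44 alternative settings. None of these settings removed the myeloid, NK, plasma cell and platelet marker RNA that the old rTreg libraries held, as given above. The part of that RNA in this difference was not tested.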

How the results depend on the processing

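Of the receptor genes, the number called between kTreg and aTreg cells in young mice, 1, was 2 with DESeq2 and 3 at an unadjusted p. In old mice, also 1, it was 2 with a pseudocount of 5, a filter at 50, the replicate block, TMM scaling, edgeR or DESeq2, and 4 with only the groups compared in the model or at an unadjusted p. Over all genes limma called 222 higher and 144 lower there, the replicate block 271 and 175, edgeR 173 and 149 and DESeq2 375 and 288. For the other settings no number over all genes is given. Old against young gave 2 in rTreg and 2 in aTreg cells, and 4 in each at an unadjusted p. In kTreg cells it gave 0, and 1 with a pseudocount of 5, 2 with DESeq2 and 4 at an unadjusted p. The age difference between kTreg and rTreg cells gave 1, and 2 with the replicate block, DESeq2 or an unadjusted p. Those between kTreg and aTreg and between aTreg and rTreg cells gave 0, and 3 at an unadjusted p. The cause was not tested. Libraries with the same number in an age share only that number in the sources used here. Their deviations from the group means had median correlations of 0.15 (rTreg and aTreg), 0.09 (rTreg and kTreg) and 0.12 (aTreg and kTreg), against -0.03, -0.03 and -0.05 for unlike numbers, and the lowest was -0.06. In 39 of 48 pairings of a library with another subset the best correlation was with its own number, a hint from the data and not from the design. With the number as a block (correlation 0.062) the calls of Cxcr5 (old kTreg against aTreg, adjusted p = 0.037) and Cxcr6 (age difference, kTreg against rTreg, adjusted p = 0.046) were gained and no other call of the 5 genes changed.

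With single libraries, or all libraries of 1 number and age, left out, the number called ranged from 1 to 2 between kTreg and aTreg cells in the young and in the old, from 1 to 3 between old kTreg and rTreg cells, from 0 to 1 between old and young kTreg cells, and for the age differences from 1 to 2 (kTreg against rTreg) and from 0 to 2 (aTreg against rTreg). Values that changed sign were uncalled. Cxcr3 between young kTreg and aTreg cells was 0.01, -0.045 with equal sums and -0.14 to 0.12 with libraries left out. Cx3cr1 between young kTreg and aTreg cells was 0.20 with edgeR, 0.18 with DESeq2 and -1.77 to 1.16 with libraries left out. In the latter settings Cx3cr1 was -1.21 to 0.40 between kTreg and rTreg cells, -1.11 to 2.11 in young mice, and -0.33 to 1.94 between old and young kTreg cells. Likewise Cxcr5 was -0.51 to 0.20 between old aTreg and rTreg cells and -0.12 to 0.37 for the age difference of kTreg against rTreg, and Cxcr4 was -0.18 to 0.30 for that of kTreg against aTreg.

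Numbers called over all genes differed by more than 1.5 times with DESeq2 in 7 comparisons and with edgeR in 1. For old kTreg against aTreg cells limma called 222 higher and 144 lower and DESeq2 375 and 288, for young aTreg against rTreg cells 451 and 106 against 636 and 216, and for old against young aTreg cells 308 and 143 against 448 and 253. For old against young kTreg cells it was 170 and 39 with limma, 248 and 165 with DESeq2 and 74 and 35 with edgeR. For the age differences it was 7 and 19 against 39 and 92 (kTreg against aTreg), 166 and 337 against 238 and 610 (kTreg against rTreg) and 85 and 174 against 208 and 402 (aTreg against rTreg). Cx3cr1 had 0 to 422 reads per library, and its SE for a difference between 2 groups was 1.18 on the log2 scale, against 0.29 for Cxcr4.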
